A study of Caenorhabditis elegans with 12 samples.

Results

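The MAP kinase genes outside the immune p38 branch were followed through the 4 groups of the study. The set holds the Jun N-terminal kinase (JNK) gene jnk-1 and its activator jkk-1, the JNK-like module mlk-1, mek-1 and kgb-1, the MAP kinase phosphatase gene vhp-1, the p38-family gene pmk-3, and the extracellular signal-regulated kinase (ERK) module lin-45, mek-2 and mpk-1. The 10 genes were listed by name, with earlier results of these data known, and every probe set that the platform annotation gives to one of them alone was taken, which made 17 of the 22548 probe sets tested and 10 of the 17118 genes with a probe set of their own. There were 2 probe sets for 7 of the genes and 1 for kgb-1, mek-1 and pmk-3. A further probe set that the annotation shares between mek-1 and another gene was not used. Where a gene had 2 probe sets, the one with the higher mean over all arrays is called its main probe set.

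A MAP kinase cascade is a relay of 3 kinases in which a MAP kinase kinase kinase (MAP3K) phosphorylates a MAP kinase kinase (MAP2K), which phosphorylates the MAP kinase, and phosphatases reset it. In Caenorhabditis elegans JNK-1 acts mainly in neurons, where it affects locomotion and stress resistance. The MLK-1, MEK-1 and KGB-1 relay protects against heavy metals and is held down by the phosphatase VHP-1. PMK-3 serves the DLK-1 pathway of axon regrowth, and the LIN-45, MEK-2 and MPK-1 relay carries Ras signals in vulva formation and germline meiosis. The arrays read messenger RNA levels and carry no information on phosphorylation, by which these kinases are switched on.

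The worms were wild-type hermaphrodites, grown on OP50 bacteria, synchronized by hypochlorite treatment and used as young adults of 3 days, with no strain name beyond wild type. All 4 groups then spent 24 h at 20 °C in a salt solution (K-medium) without food. The control group received nothing else, the TiO2 group titanium dioxide at a dose not given in the sources used here, the UV group ultraviolet light for 4 h, and the UV+TiO2 group both. The 2 irradiated groups were moved after the light into the incubator of the others for the remaining 20 h, so that irradiation and the separate first 4 h cannot be told apart. Each group had 3 arrays of whole-worm RNA, and nothing in the labels says that they came from separate cultures, so a p-value speaks only to the scatter of these 12 arrays, part or all of which could be technical.

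Values are log2 expression values in which 1 unit is a doubling. Array medians lay between 6.361 and 6.478 on the irradiated arrays and between 6.545 and 6.625 on the others, without overlap. Arrays that differed in UV correlated at 0.931 to 0.944 over all probe sets, against 0.986 to 0.998 for all other pairs. The number of arrays limits the precision, with a median standard error (SE) of 0.118 for a difference between 2 groups. Of all probe sets 50.6% were called after UV. The median log2 change over all probe sets was 0.109 after UV and 0.15 when UV was added to TiO2, and the changes below stand beside these values. Of the probe sets called after UV 54.3% were higher, and 74.6% were when the array medians were set equal. A gene is said to have risen or fallen where limma's adjusted p was under 0.05.

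**Figure D1:**
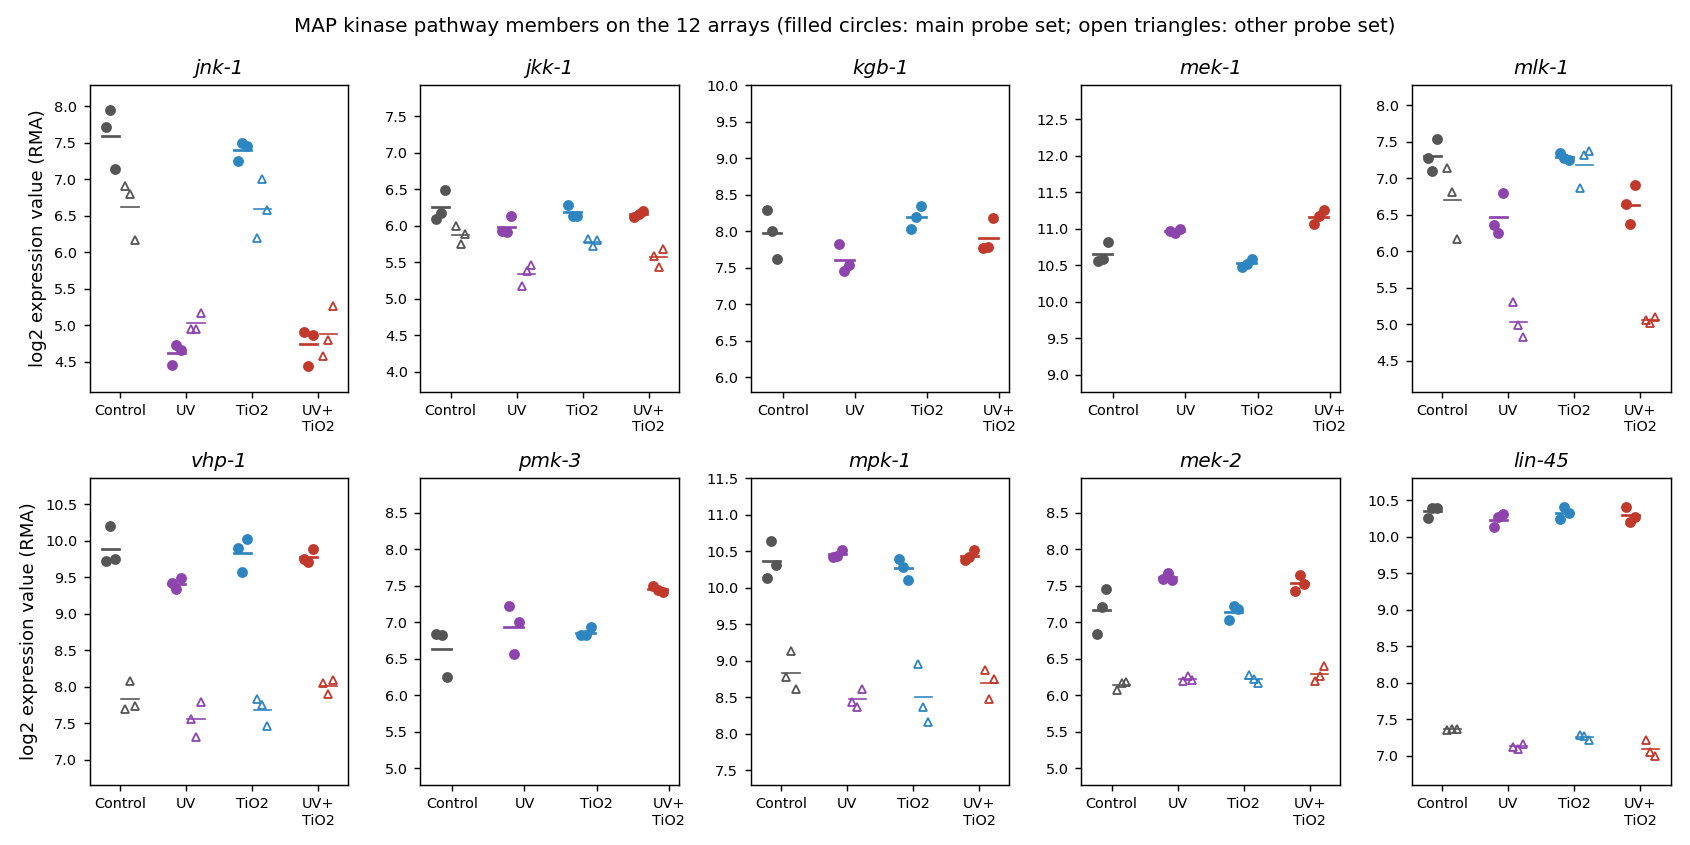
Log2 expression value of each of the 10 genes on the 12 arrays, by group. Filled circles are the main probe set, open triangles the other one, and short bars the group means. The main probe set of jnk-1 lies between 4.44 and 4.91 on all 6 irradiated arrays and between 7.14 and 7.94 on the other 6.

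After UV the genes of the set went both ways. jnk-1, mlk-1 and vhp-1 fell, mek-1 and mek-2 rose, and jkk-1, kgb-1, pmk-3, mpk-1 and lin-45 did not pass on their main probe sets. The share of all genes that changed by as much or more was 0.911% for jnk-1, 18% for mlk-1 and 36.3% for vhp-1. It was 51.1% for mek-1 and 38.7% for mek-2, so the rises were of a common size. The set thus had 5 of 10 genes called, against 50.7% of all 17118 genes in the same comparison, so the count is at the background. The 3 falls stand against 22.8% of genes called lower and the 2 rises against 27.9% called higher. The median log2 change of the 10 was −0.19, against 0.114 over all genes. Over the 17 probe sets 7 fell and 2 rose, against 50.6% of all probe sets called. The UV and control arrays did not overlap for 5 of the 10 genes, against 56.1% of all genes. By limma's F-test 6 of the 10 differed among the 4 groups, against 55.6% of genes.

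jnk-1 encodes the JNK of the worm. Its main probe set read 7.71, 7.94 and 7.14 on the control arrays and 4.46, 4.73 and 4.66 on the UV arrays. It read 7.25, 7.49 and 7.46 with TiO2 and 4.91, 4.44 and 4.87 with UV and TiO2. The 6 irradiated arrays were all below the 6 others, with no overlap. The group mean fell from 7.60 ± 0.41 (SD, n = 3) to 4.62 ± 0.14 after UV, a 7.90-fold fall (log2 change −2.98, SE 0.18, limma adjusted p = 4.86e-08). Only 0.911% of all genes changed by as much or more in that comparison. The UV mean lay above that of only 14% of all probe sets on those arrays, and the table holds no detection calls, so whether jnk-1 was above background there is unknown and the fold is the ratio of the array values.

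The second probe set of jnk-1 fell as well but by less. It read 6.91, 6.79 and 6.17 in control and 4.95, 4.95 and 5.17 after UV, a 3.03-fold fall (log2 change −1.60, limma adjusted p = 9.83e-05). The 95% intervals of both probe sets, −3.38 to −2.58 and −2.11 to −1.09, did not meet, so the size of the fall depends on the probe set read. Its UV mean of 5.02 was likewise low, above that of 22.1% of probe sets. On the UV+TiO2 arrays it read 4.57, 4.79 and 5.26, against 6.19, 7.0 and 6.57 with TiO2, and fell there by 1.72 on the log2 scale (limma adjusted p = 5.66e-05). Both probe sets of jnk-1 kept their 3 UV calls in every alternative setting tried.

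Most neuronal markers fell in the comparison in which jnk-1 fell, as did most intestinal markers, which are given below. Of 18 neuronal markers measured, 15 fell and 2 rose after UV (median log2 change −0.94). Their single values ran from 3.94 to 11.69. Over all genes 22.8% were called lower and 27.9% higher. The mean log2 level of the 18 lay between 7.72 and 7.92 on the control arrays, 6.70 and 6.77 under UV, 7.68 and 7.84 with TiO2 and 6.69 and 6.75 with both. The synaptic vesicle gene rab-3 fell by 1.29, the syntaxin gene unc-64 by 1.91 and the SNAP-25 gene ric-4 by 3.03, while the synaptobrevin gene snb-1 was at −0.05 (limma adjusted p = 0.646) and the secretion gene unc-31 rose by 0.79. The 2 markers that rose, unc-31 and rgef-1, were read on probe sets in the lowest 30% by mean over all arrays. Whether these were above background is unknown. In whole-worm RNA fewer cells of a type and less RNA per cell cannot be told apart, and the part of neuronal RNA in the fall of jnk-1 was not tested.

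Other tissues shifted in the same comparison, where 22.8% of all genes were called lower and 27.9% higher. Intestinal markers fell in 10 of 12 genes and rose in none (median −1.36), and their mean log2 level lay between 10.27 and 10.41 on the control arrays and between 8.92 and 9.02 under UV. Among the 14 genes listed as markers of late embryos or early larvae there were 8 falls and 3 rises (median −0.60). Their mean levels were 7.90 to 8.08 in control and 6.39 to 6.55 under UV. Single genes ran from −5.67 to 1.09, so the median says little of this list. dpy-14 went from a mean of 12.03 to 6.36 and cut-3 from 11.62 to 5.98, while sqt-1 rose from 5.16 to 6.25. The 12 body wall muscle markers gave 6 falls and 2 rises, and the 12 epidermal markers 5 of each. Germline markers rose in 8 of 16 genes and fell in 1 (median 0.38), with mean levels of 10.91 to 11.03 in control and 11.22 to 11.26 under UV. Sperm markers rose in 7 of 11 genes and fell in none (median 0.31), with mean levels of 5.99 to 6.34 in control and 6.84 to 6.98 under UV. TiO2 moved no marker of any list past the threshold. The lowest value of any marker was 3.85, and without detection calls it is unknown whether the low ones were above background. The part of these tissues in the values of the MAP kinase genes was not tested.

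jkk-1, which encodes the MAP2K that activates JNK-1, moved far less than its substrate. Its main probe set read 6.10, 6.17 and 6.49 in control and 5.93, 5.91 and 6.13 after UV, and these groups overlapped. The log2 change was −0.26 (95% interval −0.50 to −0.02) with a limma adjusted p of 0.0627. The second probe set read 6.0, 5.75 and 5.89 in control and 5.17, 5.38 and 5.46 after UV, without overlap, and fell 1.46-fold (limma adjusted p = 0.000769). The call on the main probe set passed without control replicate 1 (log2 change −0.34, limma adjusted p = 0.0269) and without UV replicate 3 (−0.33, limma adjusted p = 0.0394). With all arrays kept it passed with array weights (−0.27, limma adjusted p = 0.00914), with the SD of the arrays as a covariate (−0.29, limma adjusted p = 0.00325) and for the mean of both probe sets (−0.40, limma adjusted p = 0.0027).

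In the JNK-like relay the upper kinase fell and the middle kinase rose. mlk-1, which encodes the MAP3K, read 7.28, 7.10 and 7.53 in control on its main probe set and 6.35, 6.24 and 6.80 after UV. The UV arrays were all below the control arrays, a 1.80-fold fall (log2 change −0.85, SE 0.16, limma adjusted p = 0.00092). Its second probe set fell further, from 7.14, 6.81 and 6.16 to 5.30, 4.98 and 4.82, which is 3.19-fold (limma adjusted p = 3.48e-05). Its UV mean of 5.03 was below 5.44, the level under which the lowest 30% of probe sets lay by mean over all arrays. As with jnk-1 both probe sets fell, and here it was the probe set with the lower mean that gave the larger fall.

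mek-1, which encodes the MAP2K of KGB-1, rose. It read 10.56, 10.59 and 10.82 in control and 10.97, 10.94 and 10.99 after UV, so the UV arrays were all above the control arrays. The rise was 1.24-fold (log2 change 0.31, SE 0.09, limma adjusted p = 0.0118), and it was 0.49 with equal array medians. kgb-1, the JNK-like MAP kinase at the end of that relay, read 8.29, 8.0 and 7.62 in control and 7.82, 7.46 and 7.54 after UV, with overlap. Its log2 change of −0.37 (95% interval −0.74 to 0.00) did not pass (limma adjusted p = 0.0893), and it passed without control replicate 3 (−0.54, limma adjusted p = 0.0139), the lowest of its control arrays. With all arrays kept it passed with array weights (−0.47, limma adjusted p = 0.00833) and with the SD of the arrays as a covariate (−0.33, limma adjusted p = 0.0465).

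vhp-1 encodes the dual-specificity phosphatase that acts on KGB-1 and on p38 kinases. Its main probe set read 9.73, 10.20 and 9.75 in control and 9.42, 9.34 and 9.49 after UV, without overlap, and fell 1.39-fold (log2 change −0.47, SE 0.14, limma adjusted p = 0.0132). At −0.28 the other probe set did not pass (limma adjusted p = 0.125). It passed without UV replicate 3 (−0.40, limma adjusted p = 0.0459) and with array weights (−0.59, limma adjusted p = 0.00123). The call on the main probe set ended without control replicate 2, the highest array (−0.32, limma adjusted p = 0.0593), and with equal array medians (−0.29, limma adjusted p = 0.0739), and the value was −0.71 with array weights.

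pmk-3, the p38-family kinase gene of the DLK-1 pathway, read 6.84, 6.83 and 6.25 in control and 7.23, 6.57 and 7.01 after UV. Those groups overlapped, and the log2 change of 0.29 did not pass (limma adjusted p = 0.173). It passed without UV replicate 2 (0.48, limma adjusted p = 0.0326), with median centring (0.47, limma adjusted p = 0.036) and with a further quantile normalization (0.53, limma adjusted p = 0.0221).

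In the ERK relay mek-2 rose, and lin-45 and mpk-1 did not pass on their main probe sets. lin-45, the Raf gene and MAP3K of the relay, read 10.26, 10.39 and 10.40 in control and 10.13, 10.27 and 10.31 after UV on its main probe set, a log2 change of −0.11 (95% interval −0.31 to 0.08, limma adjusted p = 0.307). Its second probe set was tightly spread, at 7.35, 7.37 and 7.37 in control and 7.12, 7.10 and 7.17 after UV, and fell by 0.23 (limma adjusted p = 0.0259). That call ended with a further quantile normalization (0.06), with median centring (−0.05), without control replicate 2 (−0.23, limma adjusted p = 0.0605), without UV replicate 1 (−0.23, limma adjusted p = 0.065) and without UV replicate 2 (−0.22, limma adjusted p = 0.0802).

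mek-2 is the MAP2K gene of the relay. Its main probe set read 6.84, 7.21 and 7.46 in control and 7.59, 7.68 and 7.58 after UV, without overlap, a 1.36-fold rise (log2 change 0.44, SE 0.13, limma adjusted p = 0.0146). Its other probe set gave 6.07, 6.17 and 6.18 in control and 6.2, 6.26 and 6.21 after UV, a log2 change of 0.09 (limma adjusted p = 0.375), which passed with equal array medians (0.27, limma adjusted p = 0.01). The rise on the main probe set was 0.68 with a further quantile normalization, 0.27 for the mean of both probe sets and 0.28 without control replicate 1, the lowest array (limma adjusted p = 0.0497), and did not pass without UV replicate 2 (0.41, limma adjusted p = 0.0523). In the UV comparison 8 of 16 germline markers and 7 of 11 sperm markers rose, where 27.9% of all genes were called higher. The part of either tissue in the rise of mek-2 was not tested.

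mpk-1, the ERK gene itself, did not pass on either probe set. The main one read 10.13, 10.64 and 10.31 in control and 10.42, 10.44 and 10.52 after UV, with overlap and a log2 change of 0.10 (95% interval −0.16 to 0.36, limma adjusted p = 0.507). The second read 8.77, 9.13 and 8.61 in control and 8.44, 8.36 and 8.61 after UV, a log2 change of −0.36 (95% interval −0.78 to 0.05, limma adjusted p = 0.133). It passed with array weights (−0.62, limma adjusted p = 0.00198). The probe sets thus pointed in opposite directions, and neither interval leaves room for a change as large as that of jnk-1.

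UV+TiO2 against TiO2 gives the UV effect from group means of other arrays than the comparison above, although the SE and p of both come from 1 fit to all 12 arrays. There too 5 of the 10 genes were called, against 54.7% of all genes. jnk-1 and mlk-1 fell, where 21.8% of genes were called lower, and mek-1, pmk-3 and mek-2 rose, where 32.8% were called higher. For these 5 genes the arrays of both groups did not overlap, against 67.5% of all genes. jnk-1, mlk-1, mek-1 and mek-2 were called in the same direction in both, that is 4 of 10 genes, against 42.6% of all genes.

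jnk-1 fell 6.32-fold (log2 change −2.66, SE 0.18, limma adjusted p = 1.37e-07), with the UV+TiO2 arrays again all below the TiO2 arrays. mlk-1 read 7.34, 7.28 and 7.24 with TiO2 and 6.64, 6.37 and 6.90 with both, a 1.57-fold fall (limma adjusted p = 0.00559), and on its second probe set 6.86, 7.32 and 7.37 against 5.05, 5.01 and 5.09, a 4.39-fold fall (limma adjusted p = 4.33e-06). The mean of both mlk-1 probe sets fell by 1.39 on the log2 scale. mek-1 read 10.48, 10.52 and 10.59 with TiO2 and 11.07, 11.17 and 11.26 with both, a 1.55-fold rise (limma adjusted p = 7.36e-05), and neither pair of groups overlapped.

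pmk-3 rose in this comparison. It read 6.83, 6.82 and 6.93 with TiO2 and 7.50, 7.44 and 7.42 with both, a 1.51-fold rise without overlap (log2 change 0.59, SE 0.17, limma adjusted p = 0.012). mek-2 read 7.03, 7.23 and 7.18 with TiO2 and 7.43, 7.65 and 7.53 with both (log2 change 0.39, limma adjusted p = 0.0264). That call of mek-2 ended without TiO2 replicate 1 (0.33, limma adjusted p = 0.0773), TiO2 replicate 3 (0.41, 0.0515), UV+TiO2 replicate 2 (0.33, 0.0913) or UV+TiO2 replicate 3 (0.39, 0.0609). It also ended for the mean of both probe sets (0.22, limma adjusted p = 0.0612) and with the SD of the arrays as a covariate (0.33, limma adjusted p = 0.0561), and the value was 0.69 with a further quantile normalization.

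vhp-1, which fell after UV alone, was at −0.05 here (95% interval −0.35 to 0.25, limma adjusted p = 0.761), and jkk-1 was at −0.03 and −0.21 on its probe sets, neither of which passed. The other probe set of vhp-1 was at 0.33 (limma adjusted p = 0.0653), and it passed in 6 alternatives, among them a further quantile normalization (0.60, limma adjusted p = 0.00611), equal array medians (0.45, limma adjusted p = 0.0122), array weights (0.42, limma adjusted p = 0.0126) and the fit without TiO2 replicate 1 (0.40, limma adjusted p = 0.0471). mpk-1 was at 0.18 and 0.21 on its probe sets, and neither passed. The main one passed with equal array medians (0.29, limma adjusted p = 0.0422) and array weights (0.24, limma adjusted p = 0.0392). The second passed with array weights (0.39, limma adjusted p = 0.0345) and without TiO2 replicate 1 (0.44, limma adjusted p = 0.0381). Whether UV acted differently with and without TiO2 is tested by the interaction. It was called for none of the 17 probe sets and for 0% of all probe sets by limma. The values furthest from 0 among the 17 probe sets were 0.61 for the second probe set of vhp-1 (unadjusted p = 0.0106, limma adjusted p = 0.898), 0.57 for that of mpk-1 (limma adjusted p = 0.962) and −0.46 for that of mlk-1 (limma adjusted p = 0.962). The main probe set of vhp-1 was at 0.42 (limma adjusted p = 0.962). Of the 10 genes, mek-1 alone had an unadjusted p under 0.05 for the interaction (log2 value 0.33, limma adjusted p = 0.908), as did 5.29% of all genes. With array weights the interaction passed on the second probe sets of vhp-1 (1.01, limma adjusted p = 0.0337) and mpk-1 (1.01, limma adjusted p = 0.0442), where 0.976% of all probe sets were called with those weights.

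**Figure D2:**
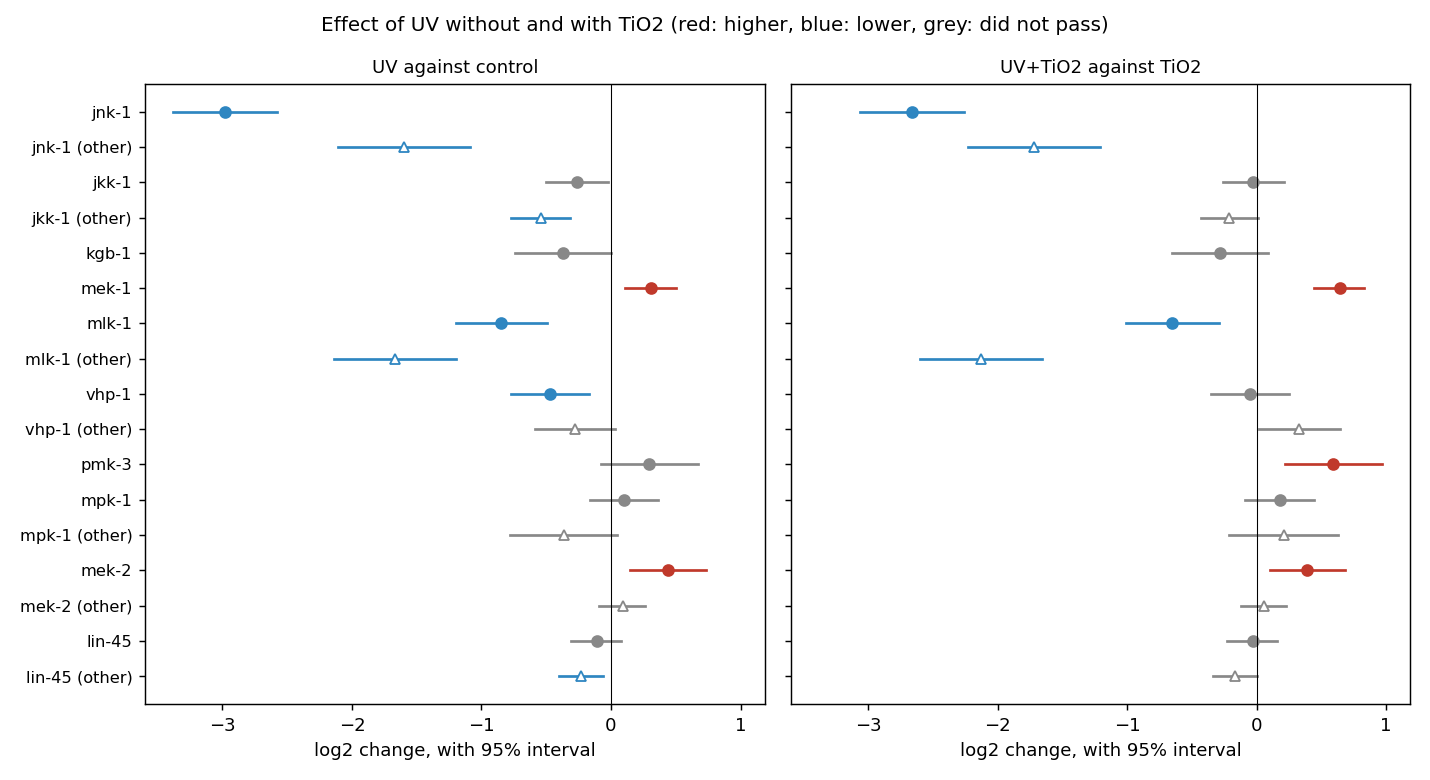
Log2 change of the 17 probe sets after UV, without TiO2 on the left and with TiO2 on the right, on separate arrays. Points are limma estimates, lines 95% intervals, open triangles the second probe sets, and colours the calls. Both probe sets of jnk-1 and mlk-1 lie well below 0 in both panels, and mek-1 lies above 0 in both.

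Against the untreated worms the joint exposure also gave 5 calls among the 10 genes, where 54.6% of all genes were called, 32.4% higher and 22.2% lower, and 4 genes whose arrays did not overlap, against 61.1% of all genes. This comparison shares the control arrays with UV against control, so its values are given beside that one and not as support. jnk-1 was at −2.86 (limma adjusted p = 7.1e-08) and mlk-1 at −0.67 (limma adjusted p = 0.00466). mek-1 was at 0.51 (limma adjusted p = 0.000464), pmk-3 at 0.81 (limma adjusted p = 0.0018) and mek-2 at 0.37 (limma adjusted p = 0.0343), and all 5 passed. The call of mek-2 ended without control replicate 1 (0.20, limma adjusted p = 0.139), control replicate 2 (0.39, 0.0584), UV+TiO2 replicate 2 (0.31, 0.113) or UV+TiO2 replicate 3 (0.37, 0.0744), with the SD of the arrays as a covariate (0.31, 0.0828) and in a fit to the 6 arrays compared (0.37, 0.0858). It was 0.65 with a further quantile normalization, and the joint arrays overlapped the control arrays. On their main probe sets vhp-1 was at −0.11, jkk-1 at −0.10, kgb-1 at −0.06 and lin-45 at −0.06, and none of these passed. The second probe sets of lin-45 (−0.28, limma adjusted p = 0.0107) and jkk-1 (−0.31, limma adjusted p = 0.0239) were called lower. The call of lin-45 ended in 3 alternatives and that of jkk-1 in 5. The second probe set of vhp-1 was at 0.18 and did not pass (limma adjusted p = 0.304).

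TiO2 alone moved none of the 10 genes past the threshold, where 0.00584% of all genes and 0.00443% of all probe sets were called. By limma no probe set of the 17 had an adjusted p under 1, and no main probe set had an unadjusted p under 0.05, as 4.59% of all genes did. The log2 changes on the main probe sets ran from −0.20 for jnk-1 to 0.22 for kgb-1 and pmk-3. On these probe sets the TiO2 and control arrays overlapped for all 10 genes, where 5.86% of all genes did not overlap. Of the second probe sets only that of lin-45 did not overlap, with 7.35, 7.37 and 7.37 in control and 7.29, 7.28 and 7.22 with TiO2. The 95% intervals of the change on the main probe sets were −0.60 to 0.20 for jnk-1 and −0.38 to 0.34 for mlk-1. They were −0.32 to 0.06 for mek-1 and −0.36 to 0.17 for mpk-1. The second probe set of mlk-1 had the largest value (0.48, 95% interval 0.01 to 0.95, unadjusted p = 0.0464), with arrays that overlapped.

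TiO2 added to UV did not move the set past the threshold either, where 0.117% of all genes and 0.0887% of all probe sets were called by limma. At an unadjusted p under 0.05 there were 3 of the 10 genes, against 6.48% of all genes. 3 genes, mek-1, vhp-1 and pmk-3, had all joint arrays above all UV arrays, where 18.7% of all genes did not overlap. pmk-3 read 7.23, 6.57 and 7.01 under UV and 7.50, 7.44 and 7.42 with both (log2 change 0.52, 95% interval 0.14 to 0.89, unadjusted p = 0.0106, limma adjusted p = 0.524). vhp-1 read 9.42, 9.34 and 9.49 under UV and 9.75, 9.71 and 9.89 with both (log2 change 0.37, 95% interval 0.06 to 0.67, limma adjusted p = 0.667).

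On its second probe set vhp-1 pointed the same way, with 7.56, 7.32 and 7.80 under UV and 8.05, 7.90 and 8.10 with both (log2 change 0.45, limma adjusted p = 0.463). mek-1 was at 0.20 (95% interval 0.00 to 0.39, limma adjusted p = 0.793). With array weights, which give UV replicate 2 a weight of 5.82 and control replicate 1 one of 0.279, 4 of the 10 genes were called higher: kgb-1 (0.41), mek-1 (0.22), vhp-1 (0.42) and pmk-3 (0.76), where 8.60% of all genes were called with those weights.

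**Figure D3:**
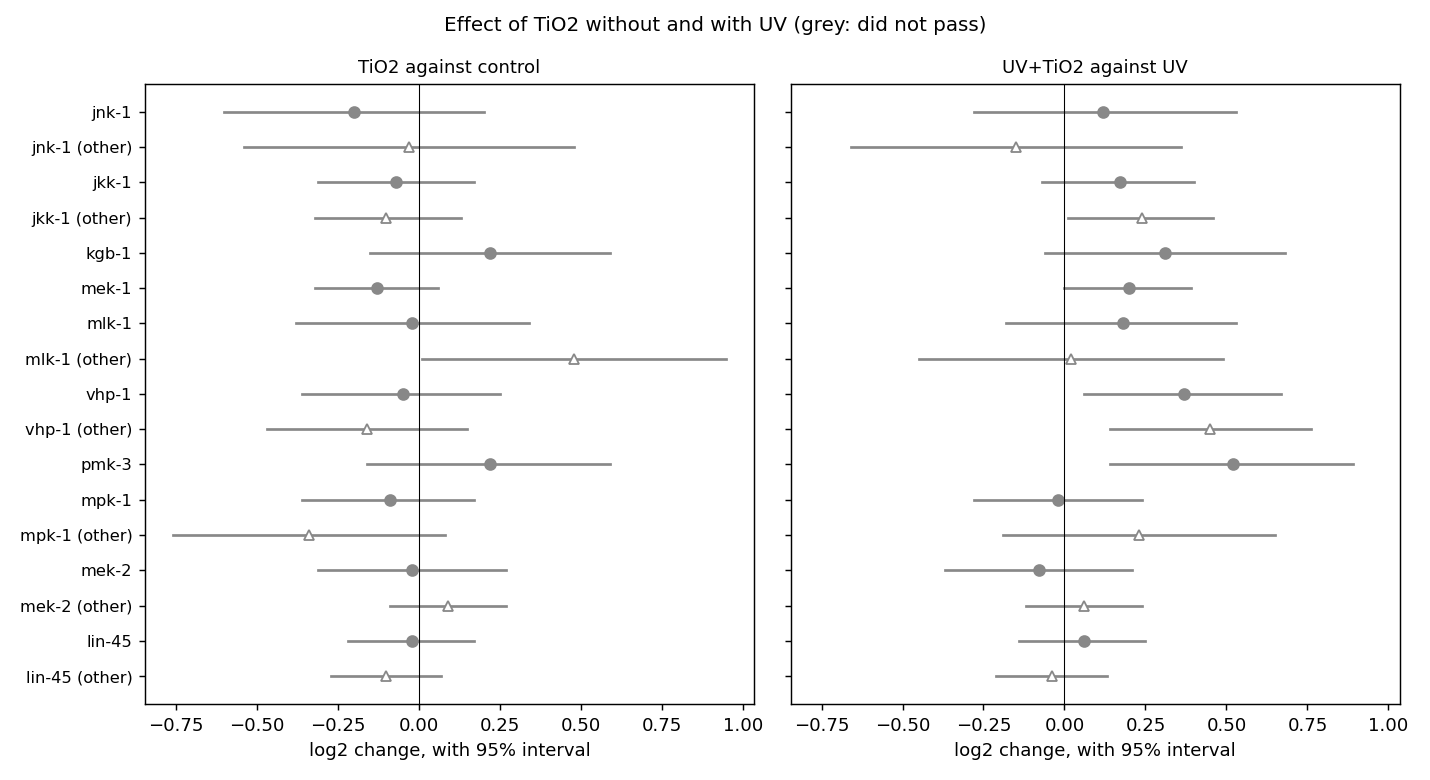
Log2 change of the 17 probe sets after TiO2, without UV on the left and with UV on the right. Points are limma estimates, lines 95% intervals and open triangles the second probe sets. No probe set passed in either panel, and in the right panel pmk-3 (0.52), both probe sets of vhp-1 (0.37 and 0.45), the second of jkk-1 (0.24) and, barely, mek-1 (0.20) have intervals above 0.

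In order of level, jnk-1 went from UV (4.62) through UV+TiO2 (4.74) and TiO2 (7.40) to control (7.60), and only the middle step of 2.66 passed (limma adjusted p = 1.37e-07). mlk-1 had the same order, from 6.46 through 6.64 and 7.29 to 7.31, again with only the middle step passing. mek-1 rose from TiO2 (10.53) through control (10.66) and UV (10.97) to UV+TiO2 (11.17), where the step from control to UV alone passed. pmk-3 went from control (6.64) through TiO2 (6.86) and UV (6.93) to UV+TiO2 (7.45), and no neighbouring step passed, although the ends differed. For mek-2 only the step from control (7.17) to UV+TiO2 (7.54) passed, and no step passed for jkk-1, kgb-1, vhp-1, mpk-1 or lin-45.

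The genes whose pattern was nearest to each gene that passed the F-test were found by Pearson's r over the 12 arrays, as a description. The 12 arrays share the split between irradiated and other worms, which all such values follow where the gene itself does. For jnk-1 the nearest were abhd-14 (r = 0.995) and K02C4.5 (r = 0.994), and 14.7% of the 17108 other genes had an r above 0.9 with it. For mlk-1 they were F32B4.5 (0.97) and nrx-1 (0.966), which encodes the synaptic adhesion protein neurexin, with 2.40% of genes above 0.9. For mek-1 they were lido-4 (0.982) and mbf-1 (0.981), and for mek-2 T09F5.10 (0.974) and aakb-2 (0.971), which encodes a subunit of the energy sensor AMP kinase. The patterns of vhp-1 and pmk-3 were rarer. For vhp-1 the nearest were eef-1A.2 (0.916), a translation elongation factor gene, and arrd-11 (0.915), and for pmk-3 M28.8 (0.938) and unc-84 (0.906), a gene of the nuclear envelope, with 2 genes above 0.9 for each.

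The other genes of these cascades were read from 3 lists of partners. Of 18 measured partners of JNK-1, KGB-1 and PMK-3, 10 fell and 3 rose after UV (median −0.60, against 0.114 over all genes, of which 22.8% fell and 27.9% rose). The AP-1 transcription factor genes stood among them: fos-1 read 8.50, 8.60 and 8.51 in control and 7.32, 7.31 and 7.43 after UV, a 2.27-fold fall (limma adjusted p = 2.69e-07), and its second probe set fell by 1.29. jun-1 read 9.05, 9.28 and 8.98 in control and 7.60, 7.30 and 7.48 after UV, a 3.13-fold fall (limma adjusted p = 4.44e-07), but its second probe set was at 0.19 and did not pass (limma adjusted p = 0.33). In mammals Jun is the substrate from which JNK takes its name.

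Genes of the PMK-3 route went both ways. mak-2, a kinase gene downstream of PMK-3, fell from 9.12 ± 0.20 (SD, n = 3) to 7.71 ± 0.23, which is 2.65-fold (limma adjusted p = 1.47e-06). dlk-1, the MAP3K gene of that branch, fell by 1.30. mkk-4, its MAP2K gene, fell by 0.86 after UV alone and was at −0.39 with TiO2 present, which did not pass (limma adjusted p = 0.0579). The gene uev-3, for a ubiquitin conjugation factor variant that works with PMK-3, rose by 0.89. cebp-1, the bZip factor gene of this route, was at 0.33 after UV (limma adjusted p = 0.0627). The ubiquitin ligase gene rpm-1, whose product limits DLK-1, fell after UV from a mean of 7.8 to 6.8 (limma adjusted p = 2.34e-05). With TiO2 present rpm-1 was at −0.98 (limma adjusted p = 3.07e-05). fsn-1, the gene of the F-box partner of RPM-1, was at 0.00 after UV (limma adjusted p = 0.971). The receptor tyrosine kinase gene svh-2, which lies upstream of MLK-1 in axon regrowth, fell 2.17-fold on its main probe set and by 0.72 on its second one. kgb-2, a gene much like kgb-1, fell by 0.34, on a probe set in the lowest 30% by mean over all arrays. kreg-1, a gene regulated by KGB-1, rose by 0.87. The scaffold gene jip-1 fell by 1.01 on 1 of its 4 probe sets, while the others were at −0.15, 0.15 and −0.04 and did not pass.

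Of 31 measured genes of the Ras and ERK cascade 11 fell and 4 rose (median 0.04), against the same 22.8% and 27.9% of all genes. Genes of restraint stood on both sides. lip-1, a phosphatase gene that turns off MPK-1, read 5.80, 5.44 and 5.17 in control and 6.60, 6.64 and 6.55 after UV, a 2.18-fold rise without overlap (limma adjusted p = 2.19e-05). dep-1, a receptor phosphatase gene that counters the EGF receptor, fell 2.39-fold, from 9.26 ± 0.12 (SD, n = 3) to 8.01 ± 0.05 (limma adjusted p = 8.97e-08). gap-2, a Ras GTPase-activating gene, fell 2.03-fold on its main probe set and was at −0.10 on the second, which did not pass.

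ptp-2, the SHP2 phosphatase gene, which transmits receptor signals to Ras, rose 1.97-fold (limma adjusted p = 3.27e-06). mpk-2, an ERK-family gene, fell 2.28-fold on its main probe set and was at −0.12 on the second, which did not pass (limma adjusted p = 0.201). The Ras gene let-60 was at 0.12 (limma adjusted p = 0.485), and the EGF gene lin-3 (−0.28) and the EGF receptor gene let-23 (−0.36) fell, but both were within 0.04 of 0 with TiO2 present and did not pass there. Of 14 measured genes of the p38 and other MAP kinase routes 6 fell and 2 rose (median −0.27), again against 22.8% and 27.9%. pmk-2, a p38 gene, fell 2.22-fold, the MAP2K-like genes sek-4 and sek-6 fell by 1.33 and 0.41, tap-1, a TAB1-like gene, fell by 0.57, and sek-3 rose by 0.46. The main probe sets of mpk-2, let-23, sek-4 and sek-6 were in the lowest 30% by mean, and whether they were above background is unknown. pmk-1, the p38 gene of the immune response, was at −0.27 (limma adjusted p = 0.352).

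The lists were also read on the separate arrays of UV+TiO2 against TiO2. Of the 18 partners of JNK-1, KGB-1 and PMK-3, 9 fell and 3 rose in both comparisons, against 19.9% and 22.7% of all genes. Of the 31 Ras and ERK genes 8 fell and 3 rose in both, and of the 14 other genes 5 fell and 1 rose. fos-1 was at −0.91, jun-1 at −1.79 on its main probe set, dlk-1 at −1.75, lip-1 at 1.14 and ptp-2 at 0.59 in the second comparison, and all passed. On its second probe set jun-1 was at 0.26 there and did not pass (limma adjusted p = 0.174), and the mean of both was −0.76. No gene of the 3 lists was called for TiO2 against control, for UV+TiO2 against UV or for the interaction.

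**Figure D4:**
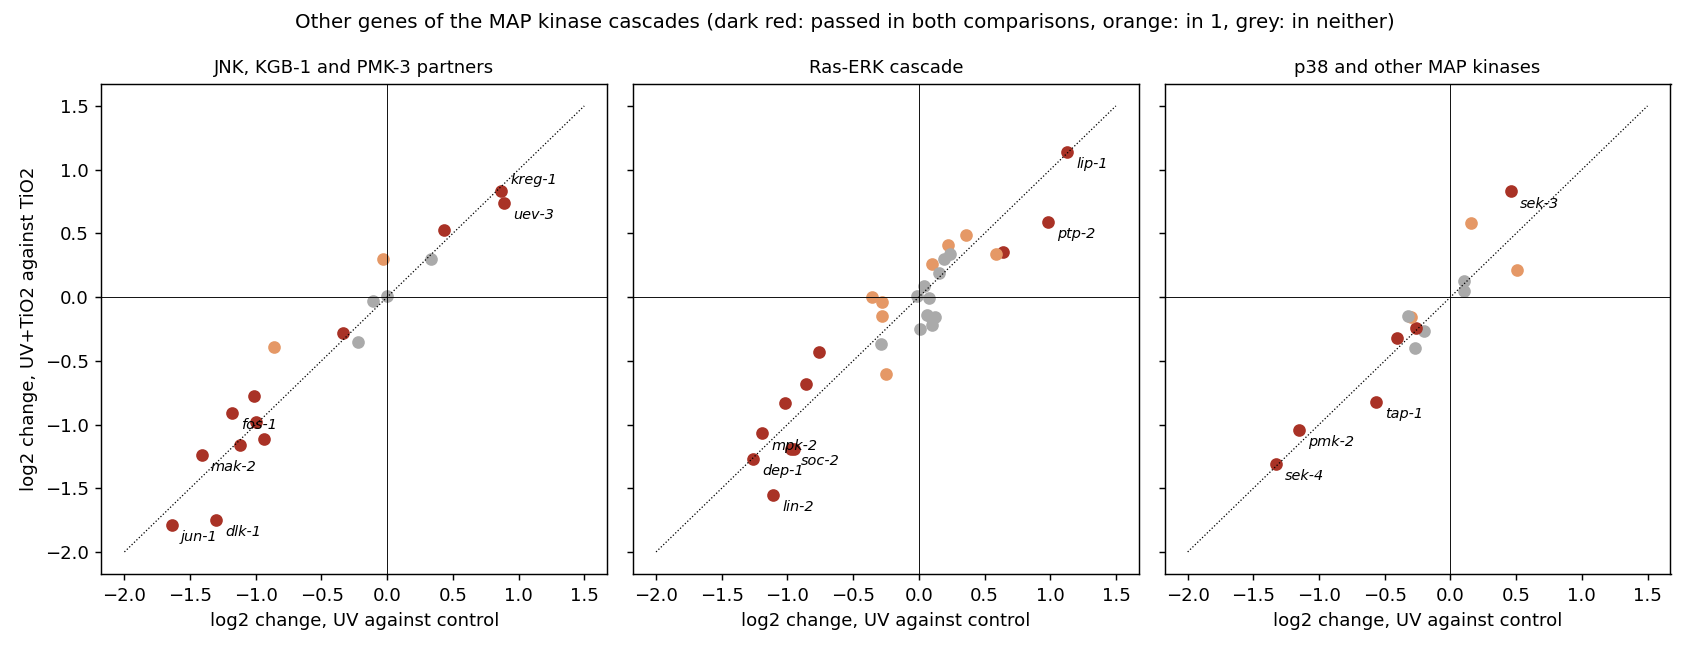
Log2 change of the genes of the 3 partner lists after UV without TiO2 (horizontal) and with TiO2 (vertical), on separate arrays. Each point is the main probe set of a gene, the dotted line marks equal changes, and the colours give the number of comparisons passed. The main probe set of jun-1 (−1.64 and −1.79) and that of lip-1 (1.13 and 1.14) lie close to the line, while the second probe set of jun-1, not plotted, was at 0.19 and 0.26.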

How the data were processed

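The authors deposited 1 table of log2 expression values. Per the submitters' processing notes they used GCOS, Affymetrix Expression Console and RMA. RMA corrects background, brings the distributions of the arrays together and gives 1 value per probe set, so a general loss of RNA in a group need not show. The deposited distributions were still not equal, with medians of 6.361 to 6.478 on the irradiated arrays and 6.545 to 6.625 on the others. Of 22625 rows 77 controls were dropped and 22548 probe sets tested, with no filter on low values. The platform annotation gave 1 symbol to 20766 of them, several to 887 and none to 895. No genome build is named, so no coordinates are given. Of the 17 probe sets used, 7 carry the suffix _s_at and can detect several transcripts.

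A model of 4 group means was fitted with limma 3.58.1 (lmFit, eBayes, 8 residual degrees of freedom) under R 4.3.3 and tested on simulated data. Benjamini-Hochberg adjustment covered all 22548 probe sets. The members and lists were chosen with earlier results of these data known. Named besides the 10 genes are up to 5 genes per partner list with the smallest p for UV and the 2 nearest patterns of each gene past the F-test. All other genes were picked after their values were seen. The alternatives, 1 of them (the SD of the arrays as a covariate) chosen after seeing the data, are described at the end.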

Additional observations from a re-analysis of the deposited data

How the results depend on the processing

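The alternatives were a block for the replicate number, a robust prior variance that depends on the level, dropping the lowest 30% of probe sets, a further quantile normalization, equal array medians, array weights, the mean of a gene's probe sets, fitting only the arrays compared, the SD of the arrays as a covariate (chosen after seeing the data) and each array left out in turn. Of the 102 values of the 17 probe sets, 25 were called, and 18 of these kept their call in every alternative run; 55 of the 77 uncalled values were called in none. The 18 include jnk-1 and mlk-1 on both probe sets and mek-1 in the 3 comparisons that contain UV, and pmk-3 for UV+TiO2 against control and against TiO2. The second probe set of lin-45 changed sign with a further quantile normalization, to 0.06 after UV and 0.02 for UV+TiO2 against control. After UV 5 of the 10 genes were called lower, in place of 3, both with array weights and with the SD as a covariate, where the share of all genes called went from 50.7% to 63.5% and 59.6%, and 4 were called higher for UV+TiO2 against UV with array weights, in place of 0. With equal array medians 5 partners of JNK-1, KGB-1 and PMK-3 rose for UV+TiO2 against control (main 3), 8 Ras and ERK genes rose after UV (main 4), as with a further quantile normalization (8), and of the p38 and other genes 5 rose after UV and 4 for UV+TiO2 against control (main 2 for each). Without the lowest 30% of probe sets 2 of the latter fell for UV+TiO2 against control (main 4). The main probe sets of sek-4 and sek-6 were among those dropped there and could not be counted. Leaving out 1 array gave 4 to 7 Ras and ERK genes higher for UV+TiO2 against control, with the low value without UV+TiO2 replicate 3, and 1 to 2 p38 and other genes higher after UV, with 1 without control replicate 2 or 3 or UV replicate 1 or 2. The share of higher calls among all probe sets went from 58.6% to 73.1% for UV+TiO2 against control, and from 59.3% to 72.7% against TiO2, with equal array medians. Apart from the dropped probe sets, the cause of these changes was not tested. Of 18 pairs of same-numbered arrays 8 had residuals correlated above 0.1 (r from −0.714 to 0.501), so the numbers were not taken as pairs. With the replicate number as a block jnk-1 was at −2.98 after UV (limma adjusted p = 1.14e-06), no pairwise call of the 10 genes changed, and 5 genes passed the F-test in place of 6.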
